A study of Rattus norvegicus with 82 samples.

Results

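The transforming growth factor beta (TGF-beta) system of heart muscle cells was followed through its ligand genes (Tgfb1, Tgfb2 and Tgfb3), its receptor genes (Tgfbr1, Tgfbr2 and Tgfbr3) and the genes of the latent TGF-beta binding proteins (Ltbp1, Ltbp2, Ltbp3 and Ltbp4). These 10 genes were chosen by symbol from the 17337 genes of the count table. All 10 were present, and all 10 had enough counts to be tested. The 82 libraries hold RNA of isolated cardiomyocytes from 41 rats, with 1 library from the right (RV) and 1 from the left ventricle (LV) of each. Banding of the pulmonary artery (PAB) put the load on the RV and banding of the aorta (AOB) put it on the LV, while sham-operated rats served as controls. H stands for the compensated, hypertrophic stage and F for the decompensated, failing stage. All animals were offspring of Wistar Kyoto females and Lewis males. By the labels the H animals, 7 with sham operation, 6 with PAB and 6 with AOB, were 11 weeks old, 7 weeks after surgery. The 9 Sham-F and 7 AOB-F animals were 31 weeks old, 26 weeks after surgery. The 6 PAB-F animals were 28 weeks old, 22 weeks after surgery, so that they were younger than their Sham-F controls, and age and banding cannot be told apart there. The groups held 3 males of 7 in Sham-H, 4 of 6 in PAB-H, 2 of 6 in AOB-H, 4 of 9 in Sham-F, 4 of 6 in PAB-F and 4 of 7 in AOB-F.

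TGF-beta ligands are secreted as latent complexes. The growth factor stays bound to its own propeptide, and a latent binding protein tethers that complex to fibrillin microfibrils until proteases or integrins release the ligand. Released ligand brings together the kinases encoded by Tgfbr2 and Tgfbr1, which phosphorylate SMAD transcription factors, and in the heart the pathway is best known for the activation of fibroblasts and the deposition of matrix under load. Betaglycan, the product of Tgfbr3, has no kinase of its own and presents ligand to the other receptors, above all the Tgfb2 product, which binds the Tgfbr2 product poorly by itself.

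Per length of transcript, Ltbp4 was the most abundant of the 10 genes, with a median of 61.6 FPKM (mapped fragments scaled to transcript length and library size) over the 82 libraries. Tgfbr2 followed at 42.1 FPKM and Tgfbr3 at 38.5 FPKM. Ltbp3 (14.3 FPKM), Tgfb1 (10.2 FPKM), Ltbp1 (8.67 FPKM), Tgfbr1 (6.45 FPKM), Tgfb3 (6.25 FPKM) and Tgfb2 (5.80 FPKM) formed a middle range, and Ltbp2 was scarce at 0.625 FPKM. The receptors that bind and present ligand thus stood well above the signalling receptor Tgfbr1 and above every ligand. None of the 10 genes was at 0 in any library, the lowest raw count being 10, for Ltbp2. Group means of FPKM varied least for Tgfbr3, by 1.4-fold between the lowest and the highest group, and most for Ltbp2 (12.5-fold), Tgfb2 (8.19-fold), Ltbp4 (6.77-fold) and Tgfb1 (5.55-fold). The highest group mean was that of RV PAB-F for Tgfb2 and Ltbp2, and that of LV Sham-F for Tgfb1 and Ltbp4.

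Total counts per library ranged from 6675287 to 19665439. In the text below, a normalized count is the raw count divided by the effective library size (TMM factors of edgeR) and multiplied by the mean effective library size, and "passed" means an adjusted p under 0.05 over all 11954 genes tested with edgeR. Errors after fitted log2 values are standard errors (SE), and 95% intervals hold for 1 gene at a time. Collagenase-isolated cardiomyocytes still carry RNA of other cells, and markers of fibroblasts, endothelial cells, mural cells and macrophages were detected in every group, while lymphocyte markers were near 0 (at most 1.69 summed CPM, the count scaled to a common library size, in any library). A change in the number of such cells and a change of RNA per cell cannot be told apart in bulk libraries. The defining markers of ventricular cardiomyocytes were present in every group, at 29077 to 65218 summed CPM in LV AOB-F and 93773 to 112569 in RV AOB-H, the groups with the lowest and the highest median. Some libraries stood apart for 1 or more of the 10 genes, namely PAB-F replicate 1 (RV), PAB-H replicate 2 (both ventricles), AOB-H replicate 6 (both ventricles) and Sham-H replicate 4 (both ventricles). All of these libraries had the highest fibroblast and macrophage marker sums of their group, for example fibroblast sums of 2843 CPM in RV PAB-H replicate 2, where the other 5 libraries had at most 1497 CPM, and 1813 CPM in RV PAB-F replicate 1, where the other 5 had at most 831 CPM. The 5 of them from PAB and AOB animals also had the lowest ventricular cardiomyocyte sum of their group. Results that rest on these animals are given with and without them.

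The promoters of Tgfb2, Tgfb3 and Ltbp2 are shown because these 3 genes passed together in the RV upon PAB at both stages, as described next. The sequences are the reference windows of RefSeq on build GRCr8, from 250 bases before to 50 bases after the listed start, whereas the counts were made on Rnor6.0, so the windows only locate the genes on GRCr8. They lie at chr13:100792636-100792935, minus strand for Tgfb2, at chr6:111456897-111457196, minus strand for Tgfb3 and at chr6:110257249-110257548, minus strand for Ltbp2. Capitals mark matches, on either strand, to any of 7 short motifs, which are the SMAD box CAGAC, the AP-1 site TGANTCA, the cyclic AMP response half-site TGACG, the GC box GGGCGG, the TATA box TATAAA, the M-CAT site CATTCC and the GATA site AGATAA.
Tgfb2: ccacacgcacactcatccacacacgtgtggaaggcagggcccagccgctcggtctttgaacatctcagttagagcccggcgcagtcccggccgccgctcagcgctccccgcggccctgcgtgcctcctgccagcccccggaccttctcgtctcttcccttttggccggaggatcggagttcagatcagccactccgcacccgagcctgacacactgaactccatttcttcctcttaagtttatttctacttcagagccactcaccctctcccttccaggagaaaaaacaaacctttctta
Tgfb3: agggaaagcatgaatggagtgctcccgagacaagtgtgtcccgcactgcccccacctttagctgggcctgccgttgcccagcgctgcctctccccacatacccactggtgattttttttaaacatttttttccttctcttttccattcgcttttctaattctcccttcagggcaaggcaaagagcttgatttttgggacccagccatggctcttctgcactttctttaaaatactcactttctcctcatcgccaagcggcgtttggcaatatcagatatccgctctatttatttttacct
Ltbp2: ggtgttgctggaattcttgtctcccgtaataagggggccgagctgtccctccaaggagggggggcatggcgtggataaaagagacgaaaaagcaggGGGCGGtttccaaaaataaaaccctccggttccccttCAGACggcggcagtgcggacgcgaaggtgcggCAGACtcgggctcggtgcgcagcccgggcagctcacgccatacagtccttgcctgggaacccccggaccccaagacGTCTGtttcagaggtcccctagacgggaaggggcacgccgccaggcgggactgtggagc
The Ltbp2 window held 3 SMAD boxes and 1 GC box, and those of Tgfb2 and Tgfb3 held no match to any of the 7 motifs. Among the windows of the 10 genes, which were all found in RefSeq, the SMAD box occurred in 2 (Ltbp1 and Ltbp2), against 50.1% of 33469 rat windows of the same length. The GC box occurred in 6 of the 10, against 33.1% of all windows, and the cyclic AMP half-site in 2 of the 10 (Tgfb1 and Ltbp1), against 21.2%. The AP-1 site (7.33% of all windows), the TATA box (14.2%), the M-CAT site (14.2%) and the GATA site (11.6%) had no match in any of the 10 windows. These matches describe letters only.

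The first comparison asked how the 10 genes responded in the ventricle that carries the load. In the RV upon PAB the ligand genes Tgfb2 and Tgfb3 and the binding protein gene Ltbp2 rose at both stages, and the co-receptor gene Tgfbr3 fell at the failing stage. At the hypertrophic stage 3 of the 10 genes passed, all higher, where 4.5% of all tested genes passed in either direction. At the failing stage 4 of the 10 passed, 3 higher and 1 lower, where 11.1% of all genes passed. The median log2 fold change of the 10 genes was 0.68 in RV PAB-H and 0.49 in RV PAB-F, beside 0.00 and 0.02 over all tested genes. Under the criteria of the study, a change of more than 1 on the log2 scale, a mean normalized count above 50 and an unadjusted p no higher than 0.01, 3 of the 10 genes met the call in RV PAB-H (1.82% of all genes) and 2, Tgfb2 and Ltbp2, in RV PAB-F (1.9%).

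**Figure D1:**
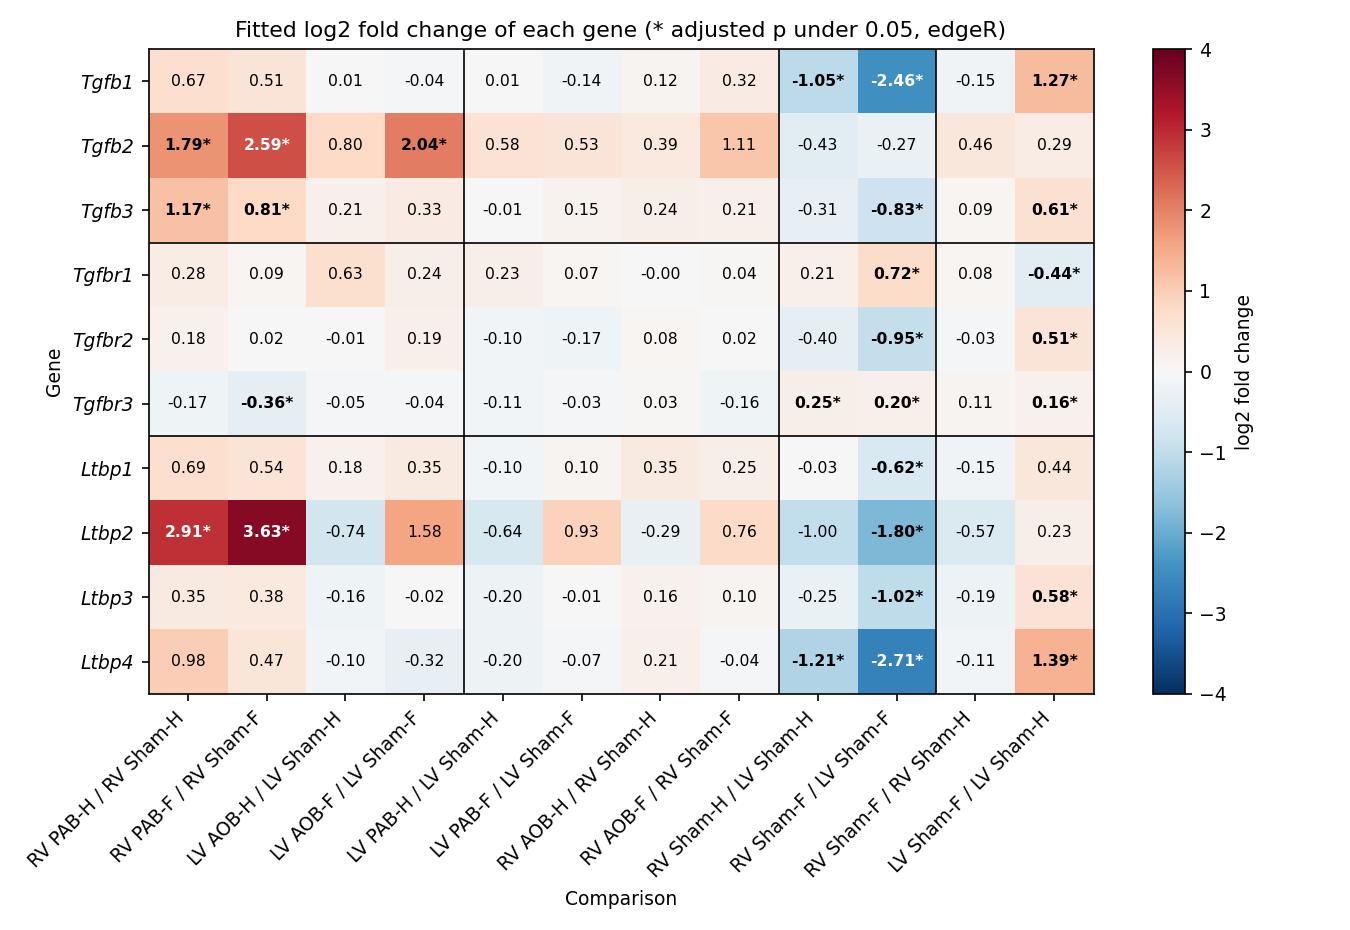
Fitted log2 fold change of each of the 10 genes (rows, ligands above receptors above binding proteins) in 12 comparisons (columns, the group before the slash against the group after it), with an asterisk for an adjusted p under 0.05 in edgeR. Under load in the RV the rows of Tgfb2, Tgfb3 and Ltbp2 carry asterisks at both stages and that of Tgfbr3 at the failing stage. Upon AOB in the LV only Tgfb2 carries an asterisk, and the RV against LV comparison of Sham-F carries 9 asterisks of 10.

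Among the ligands, Tgfb2, the isoform needed for heart cushion development, changed most. In RV Sham-H its normalized counts ran from 90.3 to 185, with a median of 108, and in RV PAB-H from 185 to 554, with a median of 463. The lowest PAB-H library lay just above the highest Sham-H library, so that the groups did not overlap. The change was 3.45-fold (95% confidence interval 2.0 to 5.96), with a log2 fold change 1.79 ± 0.40 (SE), adjusted p = 0.00566. In RV Sham-F the counts ran from 96.6 to 323, with a median of 132, and in RV PAB-F from 261 to 2210.2, with a median of 771. Here 4 of 6 PAB-F libraries lay above all 9 controls and the other 2 within their range, and the change was 6.03-fold (95% confidence interval 3.65 to 9.98), with a log2 fold change 2.59 ± 0.36 (SE), adjusted p = 2.92e-07. The PAB-F animals differed widely among themselves, with 2210.2 and 1629 in replicates 1 and 2 and 261 and 299.8 in replicates 3 and 6. The call held with any 1 animal left out, at log2 fold changes of 1.69 to 1.94 in RV PAB-H and 2.18 to 2.79 in RV PAB-F.

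Tgfb3, the isoform known for palate fusion and for its expression in mesenchymal cells, rose less. Its counts in RV Sham-H ran from 127 to 219, with a median of 168, and in RV PAB-H from 172 to 884, with a median of 249.8, with 5 of 6 PAB-H libraries above all controls (log2 fold change 1.17 ± 0.25 (SE), adjusted p = 0.00552). In RV Sham-F they ran from 144 to 229.7, with a median of 172, and in RV PAB-F from 209 to 611, with a median of 283, again with 5 of 6 above all controls (log2 fold change 0.81 ± 0.24 (SE), adjusted p = 0.0179). Both calls rested on 1 animal each. Without PAB-H replicate 2 the log2 fold change at the hypertrophic stage was 0.72 (adjusted p = 0.209), and without PAB-F replicate 1 that at the failing stage was 0.51 (adjusted p = 0.260). Tgfb1, the isoform most often tied to fibrosis, did not pass at either stage, although it did in RV PAB-H in a fit of only the groups compared (adjusted p = 0.0354). It ran from 98.1 to 175, with a median of 134, in RV Sham-H and from 155 to 361, with a median of 192, in RV PAB-H (log2 fold change 0.67 ± 0.27 (SE), adjusted p = 0.123). In the failing RV it averaged 176 ± 73 (SD, n = 6) against 123 ± 31.0 (SD, n = 9) in RV Sham-F (log2 fold change 0.51 ± 0.25 (SE), adjusted p = 0.174), and 1 of 6 PAB-F libraries lay above all controls.

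**Figure D2:**
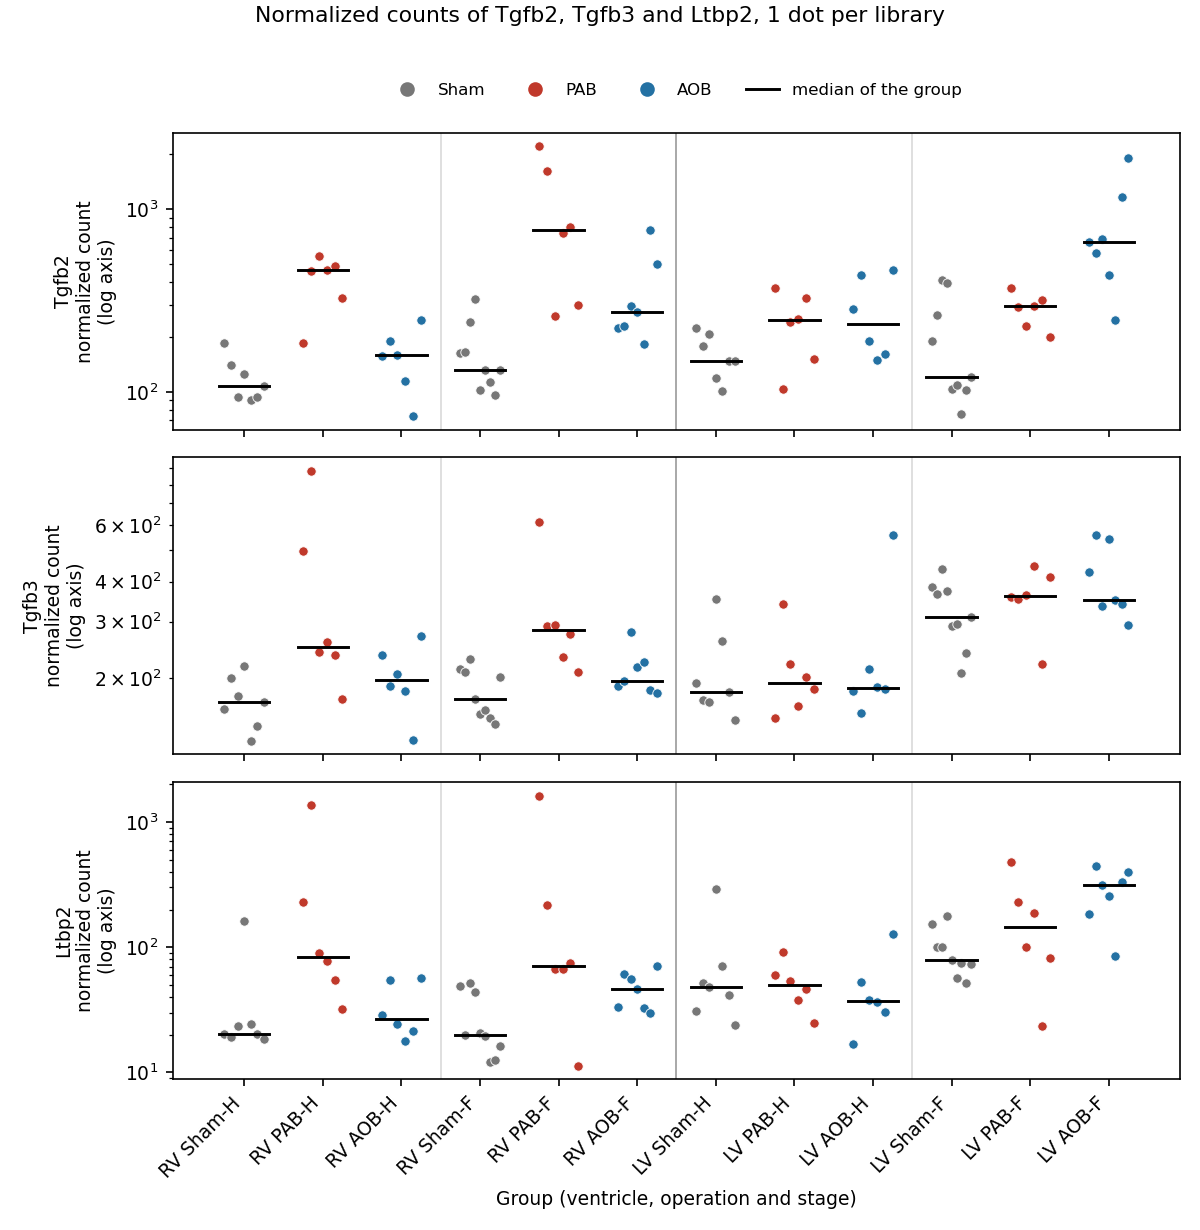
Normalized counts of Tgfb2, Tgfb3 and Ltbp2 (log axes) in the 12 groups, 1 dot per library and a bar at the group median. All 6 RV PAB-H libraries lie above the RV Sham-H libraries for Tgfb2, the LV AOB-F libraries stand high for Tgfb2 and Ltbp2, and single libraries far above the rest of their group are seen for Ltbp2 in RV PAB-H and RV PAB-F.

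Of the receptor genes, the kinases did not pass in the loaded RV in the fit over all groups, and Tgfbr1 passed in RV PAB-H in a fit of only the groups compared (adjusted p = 0.0408). Tgfbr1, the signalling kinase, averaged 603 ± 89.7 (SD, n = 6) against 495 ± 28.7 (SD, n = 7) normalized counts at the hypertrophic stage (log2 fold change 0.28 ± 0.16 (SE), adjusted p = 0.330). At the failing stage its log2 fold change was 0.09 ± 0.16 (adjusted p = 0.737), with a 95% interval of -0.22 to 0.40. Tgfbr2, the ligand-binding kinase, had log2 fold changes of 0.18 ± 0.16 (adjusted p = 0.574) and 0.02 ± 0.15 (adjusted p = 0.953), with 95% intervals of -0.14 to 0.51 and -0.29 to 0.33. For both kinases the intervals of the failing RV stayed within 0.5 of no change on the log2 scale. Tgfbr3, the betaglycan gene, fell in the failing RV. It ran from 2136 to 2599.9, with a median of 2329.6, in RV Sham-F and from 1609.8 to 1991, with a median of 1843, in RV PAB-F, so that all 6 PAB-F libraries lay below all 9 controls. The change was small but precise (log2 fold change -0.36 ± 0.07 (SE), adjusted p = 4.19e-04), and it passed with any 1 animal left out (log2 fold changes from -0.38 to -0.32, adjusted p from 2.12e-04 to 0.00501). At the hypertrophic stage 4 of 6 PAB-H libraries lay below all controls for Tgfbr3 and the change did not pass (log2 fold change -0.17 ± 0.08 (SE), adjusted p = 0.174).

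Of the binding proteins, Ltbp2 passed at both stages. Its product is carried by fibrillin microfibrils and, unlike the other 3, does not bind latent TGF-beta. In RV Sham-H it ran from 18.6 to 161, with a median of 20.4, and in RV PAB-H from 32.1 to 1364, with a median of 83.5 (log2 fold change 2.91 ± 0.68 (SE), adjusted p = 0.00962). In RV Sham-F it ran from 12.2 to 51.8, with a median of 19.97, and in RV PAB-F from 11.3 to 1629, with a median of 71.2 (log2 fold change 3.63 ± 0.65 (SE), adjusted p = 6.16e-05). The groups overlapped at both stages, and the failing group held its lowest library at 11.3 and its highest at 1629. Without PAB-H replicate 2 the log2 fold change was 1.25 (adjusted p = 0.472) and without PAB-F replicate 1 it was 1.67 (adjusted p = 0.108), so that neither call was independent of 1 animal. The RV control Sham-H replicate 4 was high as well, at 161, where the other 6 controls had at most 24.3.

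The binding proteins that do carry latent ligand did not pass in the loaded RV in the fit over all 12 groups. In a fit of only the groups compared Ltbp4 passed at both stages (adjusted p = 0.0305 and 0.0102) and Ltbp3 at the failing stage (adjusted p = 0.0205). In RV PAB-H, Ltbp4, which also organizes elastic fibres, averaged 5905 ± 3596 (SD, n = 6) and its controls 2993 ± 491 (SD, n = 7) (log2 fold change 0.98 ± 0.35 (SE), adjusted p = 0.0807), and it passed there when PAB-H replicate 6 was left out, at 1.12 (adjusted p = 0.0388). Ltbp3 had log2 fold changes of 0.35 ± 0.15 (adjusted p = 0.138) and 0.38 ± 0.14 (adjusted p = 0.0598) at the 2 stages, and it passed at the failing stage without PAB-F replicate 3 (adjusted p = 0.0316) or 6 (adjusted p = 0.0389). Ltbp1, which anchors the latent complex in the matrix, had 0.69 ± 0.29 (adjusted p = 0.144) and 0.54 ± 0.27 (adjusted p = 0.179). Each of these 3 genes had 2 to 4 of 6 PAB libraries above all controls at both stages.

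Markers of other cells moved with several of these genes. In RV PAB-H 9 of 9 tested fibroblast markers rose, and their summed level (with Col1a2, which had too few counts to be tested and was at 0 throughout RV Sham-H, RV Sham-F and RV PAB-F) ran from 420.1 to 2843 CPM against 270.2 to 518 CPM in RV Sham-H. In RV PAB-F 4 of 9 rose, at 328 to 1813 CPM against 189.5 to 559 CPM in RV Sham-F. With them rose 2 of 7 endothelial, 2 of 7 mural and 3 of 8 macrophage markers. Of all tested genes 4.5% passed in RV PAB-H and 11.1% in RV PAB-F, in either direction. No ventricular cardiomyocyte marker of 8 passed in either comparison, but their sums ran lower. They ran from 54255 to 104312 CPM in RV PAB-H against 94619 to 109059 CPM in RV Sham-H. In RV PAB-F they ran from 36386 to 85756 CPM against 72935 to 109722 CPM in RV Sham-F. With 1 animal left out, up to 2 of these markers passed as lower in RV PAB-H and up to 1 in RV PAB-F. Without PAB-H replicate 2, 0 of 9 fibroblast markers and 1 of the 10 TGF-beta genes (Tgfb2) passed in RV PAB-H, where 29 genes in all (0.241%) still passed. Without PAB-F replicate 1, 1 of 9 fibroblast markers and 2 of the 10 genes (Tgfb2 and Tgfbr3) passed in RV PAB-F, where 337 genes in all (2.81%) passed. The log2 fold change of Tgfb2 was 1.75 (adjusted p = 0.0312) without the first animal and 2.18 (adjusted p = 3.18e-05) without the second, and that of Tgfbr3 was -0.35 (adjusted p = 0.00337) without the second. Of 4 atrial cardiomyocyte markers 2 rose at each stage, with sums of 73.3 to 7603 CPM in RV PAB-F and 22.5 to 69.1 CPM in RV Sham-F. The list includes Nppa and Myl4, which the study counts among its PAB-regulated genes of RV cardiomyocytes, so it does not mark atrial cells alone. Of 3 mesothelial markers 1 rose at each stage, to at most 92.6 summed CPM. Of 2 platelet markers 0 passed. The part of these cells, and of the lower cardiomyocyte sums, in the changes of Tgfb2, Tgfb3, Ltbp2 and Tgfbr3 was not tested.

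In the LV upon AOB, Tgfb2 rose at the failing stage. At the failing stage Tgfb2 was the 1 gene of the 10 that passed, where 12.9% of all genes passed, and the median log2 fold change of the 10 was 0.22 beside 0.04 over all genes. Tgfb2 ran from 75.5 to 413, with a median of 120.4, in LV Sham-F and from 249 to 1905, with a median of 665, in LV AOB-F. All but 1 of the 7 AOB-F libraries lay above all 9 controls, and the change was 4.12-fold (95% confidence interval 2.55 to 6.68), with a log2 fold change 2.04 ± 0.35 (SE), adjusted p = 7.06e-05. Ltbp2 came close to the threshold, running from 51.9 to 176, with a median of 79.6, in LV Sham-F and from 84.5 to 446, with a median of 311, in LV AOB-F, where 6 of 7 libraries lay above all controls (log2 fold change 1.58 ± 0.57 (SE), adjusted p = 0.0551). It passed when Sham-F replicate 3, Sham-F replicate 4 or AOB-F replicate 5 was left out, with adjusted p = 0.04996, 0.0413 and 0.0385. Under the criteria of the study both Tgfb2 and Ltbp2 were called in LV AOB-F, where 1.21% of all genes were. No fibroblast marker of 9 passed in LV AOB-F, whereas 5 of 8 macrophage markers rose, at 56 to 516 summed CPM against 56.4 to 195 in LV Sham-F (1 of 8 without AOB-F replicate 7). Their part in the Tgfb2 and Ltbp2 values was not tested.

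The remaining genes did not pass in the failing LV with edgeR, and their intervals differed in width. Ltbp1 had a log2 fold change of 0.35 (adjusted p = 0.373) and Ltbp3 of -0.02 (adjusted p = 0.947). Tgfb3 had a log2 fold change of 0.33 ± 0.22 (95% interval -0.11 to 0.78) and Tgfb1 of -0.04 ± 0.23 (95% interval -0.50 to 0.42). The 95% interval was -0.18 to 0.10 for Tgfbr3, -0.10 to 0.49 for Tgfbr2 and -0.06 to 0.54 for Tgfbr1. Ltbp4 spread widely, from 2719 to 28406 normalized counts among 7 AOB-F libraries, and its interval was wide, at -0.95 to 0.32. At the hypertrophic stage 0 of the 10 genes passed in LV AOB-H, where 2 genes of all tested did (0.0167%), 2 of the 10 having an unadjusted p under 0.05 with edgeR. These 2 were Tgfbr1 and Tgfb2. Tgfbr1 averaged 666 ± 171 (SD, n = 6) against 430.2 ± 166 (SD, n = 7), with a log2 fold change 0.63 ± 0.16 (SE), adjusted p = 0.0982. Tgfb2 averaged 281 ± 139.9 (SD, n = 6) against 161 ± 44.9 (SD, n = 7), with a log2 fold change 0.80 ± 0.39 (SE), adjusted p = 0.239. Both low controls and a high AOB-H library bore on the Tgfbr1 values, with 178 and 239.7 in Sham-H replicates 4 and 5 and 1011 in AOB-H replicate 6.

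The ventricle that does not carry the band was compared in the same way, which asks whether the genes respond to heart disease in general. None of the 10 genes passed in any of these 4 comparisons with edgeR. In LV PAB-H, LV PAB-F and RV AOB-H 0 of 11954 genes passed (0% in each), and an unadjusted p under 0.05 was reached by 0 of the 10 genes in each. All genes at an unadjusted p under 0.05 numbered 305, 454 and 171 there. In RV AOB-F 8 genes passed (0.0669%) and 0 of the 10, with 517 of all genes and 2 of the 10 at an unadjusted p under 0.05. These were Tgfb2, which ran from 184 to 766, with a median of 275 (log2 fold change 1.11 ± 0.35 (SE), adjusted p = 0.512), and Tgfbr3, which ran from 1987 to 2180.3, with a median of 2105 (log2 fold change -0.16 ± 0.07 (SE), adjusted p = 0.965). Under the criteria of the study Tgfb2 was called in RV AOB-F, where 0.259% of all genes were. The RV AOB-F and RV PAB-F groups share the Sham-F controls. Tgfb2 was higher than its controls on average in all 8 banded groups, by 0.39 (RV AOB-H), 0.53 (LV PAB-F), 0.58 (LV PAB-H), 0.80 (LV AOB-H) and 1.11 (RV AOB-F) on the log2 scale in the 5 that did not pass.

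Over all 12 groups the order of the Tgfb2 levels was led by the loaded ventricles at the failing stage. The median normalized count was 771 in RV PAB-F, that of LV AOB-F was 665, and these were followed by 463 in RV PAB-H. The other groups had medians from 108 (RV Sham-H) to 295 (LV PAB-F), and the ranges of neighbours in this order overlapped throughout, RV PAB-F and LV AOB-F included. For Tgfb1 and Ltbp4 the order followed ventricle and age instead, with medians of 636 to 756 for Tgfb1 and 15961 to 18827 for Ltbp4 in the 3 LV groups of stage F, above all other groups. For Tgfbr3 the medians of the 12 groups lay between 1720.0 and 2329.6, the lowest being LV PAB-H and the lowest of the RV groups being RV PAB-F.

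Because both ventricles of each animal were sequenced, Tgfb2 could be followed within animals. The RV was higher than the LV in 5 of 6 PAB-H animals and in 6 of 6 PAB-F animals. It was lower than the LV in 6 of 6 AOB-H animals and in 7 of 7 AOB-F animals, and lower in 6 of 7 Sham-H and 6 of 9 Sham-F animals. The log2 ratio of RV over LV had a median of 1.32 (range 0.18 to 2.58) in PAB-F, -1.23 (range -1.93 to -0.44) in AOB-F and -0.08 (range -0.77 to 0.59) in Sham-F. The higher value lay on the banded side in 24 of 25 banded animals, PAB-H replicate 1 being the exception. Upon AOB, however, the banded side is the LV, which was also the higher side in most sham animals. The difference between the LV and RV responses to AOB did not pass at either stage (adjusted p = 0.835 in AOB-H and 0.533 in AOB-F, edgeR).

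**Figure D3:**
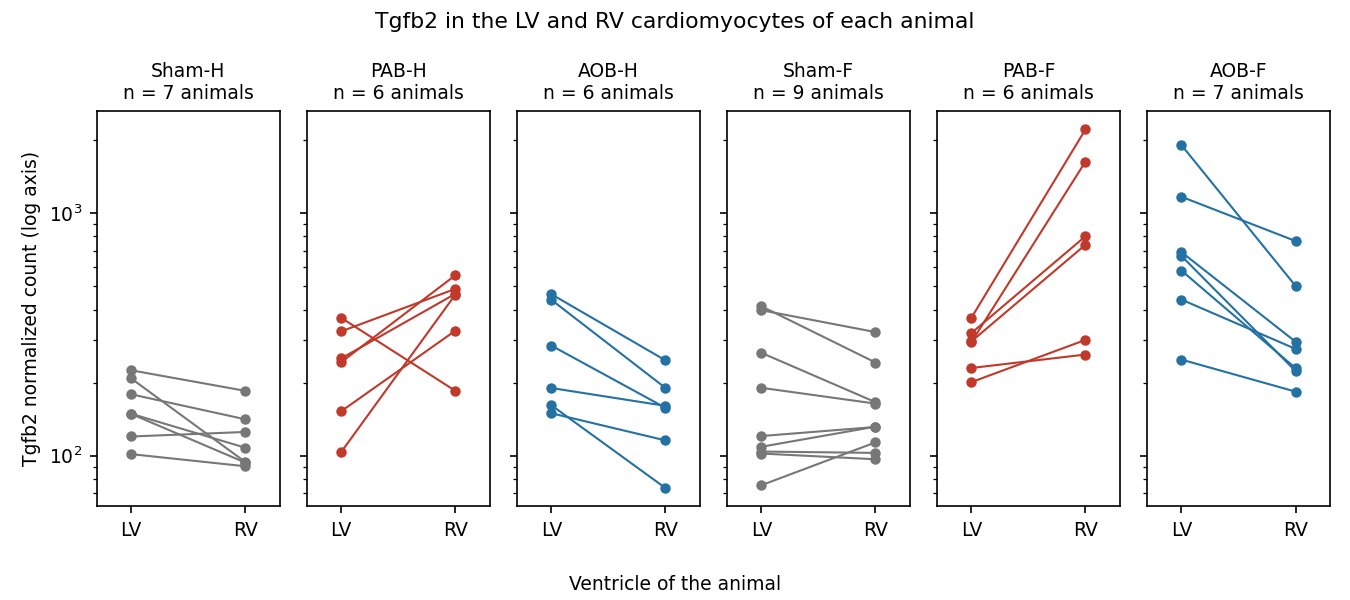
Normalized counts of Tgfb2 (log axis) in the LV and the RV of each animal, joined by a line, for the 6 groups of animals. The lines rise towards the RV in 6 of 6 PAB-F animals and in 5 of 6 PAB-H animals, and fall in all 7 AOB-F and all 6 AOB-H animals.

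Whether a response differed between ventricles was tested directly, as the difference of 2 fold changes. At the failing stage upon PAB the Tgfb2 response of the RV exceeded that of the LV by 2.06 ± 0.52 on the log2 scale (adjusted p = 0.0483), and it was 1 of 42 genes that passed (0.351%). With the animal as a block, which this comparison of ventricles allows, the difference was 1.57 (adjusted p = 0.00664), and that of Ltbp2 was 1.73 (adjusted p = 0.0401) against 2.70 ± 0.90 (adjusted p = 0.186) without it. The call for Tgfb2 lay close to the threshold and was lost in 13 of 15 fits that left out 1 animal and in 3 of 7 other settings, with adjusted p from 0.0279 to 0.406 and differences from 1.73 to 2.21 when each animal of the groups compared was left out. Without PAB-F replicate 1 the difference was 1.73 (adjusted p = 0.406). Upon AOB at the failing stage the Tgfb2 response of the LV exceeded that of the RV by 0.94 ± 0.50 (adjusted p = 0.533).

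The other differences did not pass for any of the 10 genes. At the hypertrophic stage upon PAB, 0 genes of all tested passed (0%), with 1104 at an unadjusted p under 0.05 in edgeR. These included 5 of the 10, among them Ltbp2 (difference 3.55 ± 0.96, adjusted p = 0.342), Tgfb3 (1.17 ± 0.36, adjusted p = 0.398) and Tgfb2 (1.21 ± 0.55, adjusted p = 0.485). For AOB, 0 genes passed at either stage (0% each), with 577 genes at the hypertrophic and 1161 at the failing stage under an unadjusted p of 0.05. The response at failure was also set against that at hypertrophy, with 0 genes passed for PAB in the RV (0%, 177 at an unadjusted p under 0.05) and 0 for AOB in the LV (0%, 1148). For Tgfb2 the difference between the stages was 0.80 ± 0.54 in the RV (adjusted p = 1.0) and 1.25 ± 0.52 in the LV (adjusted p = 0.384), with 95% intervals of -0.26 to 1.87 and 0.20 to 2.29. The RV response to PAB and the LV response to AOB were set against each other as well. At the hypertrophic stage 0 genes passed (0%, 1304 unadjusted). At the failing stage 377 genes did (3.15%) and 0 of the 10, with Tgfbr3 nearest, at a difference of -0.31 ± 0.10 (adjusted p = 0.0561). The Tgfb2 responses differed there by 0.55 ± 0.50, with a 95% interval of -0.45 to 1.55.

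The sham groups show how the 10 genes are set in the unloaded ventricles. In Sham-F, 9 of the 10 genes differed between RV and LV, 7 lower and 2 higher in the RV, but 74.3% of all genes did so as well. In Sham-H 3 of the 10 differed, where 21% of all genes passed. The median log2 difference of the 10 genes was -0.89 in Sham-F and -0.36 in Sham-H, beside -0.07 and -0.02 over all genes. By the criteria of the study 4 of the 10 were called in Sham-F (27.7% of all genes) and 2 in Sham-H (2.83%). 

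Tgfb1 and Ltbp4 had the widest gap between the ventricles. In Sham-F, Tgfb1 ran from 86.2 to 172, with a median of 126, in the RV and from 328 to 937, with a median of 733, in the LV, without overlap (log2 fold change -2.46 ± 0.23 (SE), adjusted p = 9.64e-15). Ltbp4 ran from 2070.4 to 3568, with a median of 2701, in the RV and from 10152 to 27102, with a median of 17394, in the LV, also without overlap (log2 fold change -2.71 ± 0.31 (SE), adjusted p = 6.25e-12). Both genes were lower in the RV in 9 of 9 Sham-F and in 7 of 7 Sham-H animals. In Sham-H the log2 difference was -1.05 ± 0.26 for Tgfb1 (adjusted p = 0.00300) and -1.21 ± 0.34 for Ltbp4 (adjusted p = 0.00919). Without Sham-H replicate 4 neither passed in Sham-H, at -0.81 (adjusted p = 0.0566) and -0.93 (adjusted p = 0.103), and 0 of the 10 genes passed.

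The receptors split. Tgfbr2 was lower in the RV than in the LV of Sham-F (1054 ± 108 (SD, n = 9) against 2034 ± 531 (SD, n = 9), log2 fold change -0.95 ± 0.14 (SE), adjusted p = 6.33e-09). Tgfbr1 was higher in the RV, running from 444 to 590.2, with a median of 512, and from 252 to 439, with a median of 308, in the LV, without overlap (log2 fold change 0.72 ± 0.14 (SE), adjusted p = 4.40e-06). Tgfbr3 was higher in the RV by a small margin in both sham groups (0.20 ± 0.06, adjusted p = 0.00397 in Sham-F and 0.25 ± 0.07, adjusted p = 0.0125 in Sham-H). The direction was the same for these 3 receptors under every normalization tried. The other genes lower in the RV of Sham-F were Ltbp2 (-1.80 ± 0.61, adjusted p = 0.00625), Ltbp3 (-1.02 ± 0.12, adjusted p = 3.48e-11), Tgfb3 (-0.83 ± 0.22, adjusted p = 4.49e-04) and Ltbp1 (-0.62 ± 0.24, adjusted p = 0.0195), the last of which was lost without Sham-F replicate 3, at -0.52 (adjusted p = 0.0588). Tgfb2 did not pass in either sham group (-0.27 ± 0.33 in Sham-F, 95% interval -0.93 to 0.40). With the animal as a block in edgeR, Tgfbr2 also passed in Sham-H, at -0.37 (adjusted p = 0.0138), and so did Ltbp2, at -1.0 (adjusted p = 0.0331). The share of all genes that passed in that fit is not given.

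**Figure D4:**
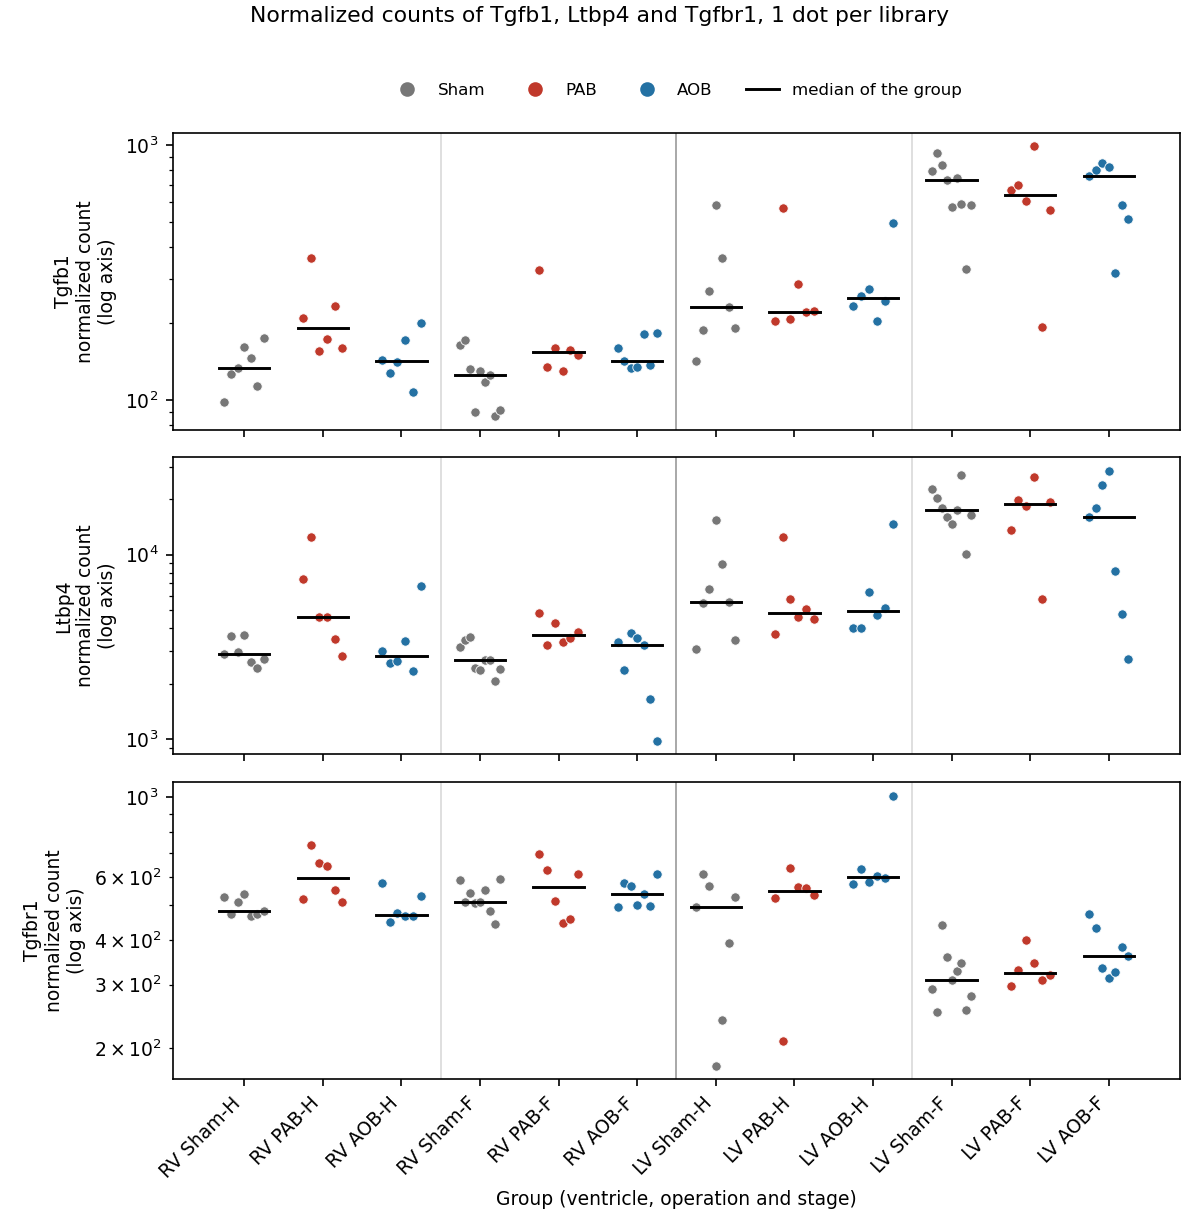
Normalized counts of Tgfb1, Ltbp4 and Tgfbr1 (log axes) in the 12 groups, 1 dot per library and a bar at the group median. In Sham-F the LV libraries stand above all RV libraries for Tgfb1 and Ltbp4 and below them for Tgfbr1, and the banded F groups are placed alike except for some overlap in Tgfb1 (PAB-F) and Ltbp4 (AOB-F).

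The sham groups of both ages were compared as well. From Sham-H to Sham-F 7 of the 10 genes changed in the LV, 6 higher and 1 lower, where 57.4% of all genes passed (under the criteria of the study 2 of the 10, Tgfb1 and Ltbp4, and 8.05% of all genes). In the RV 0 of the 10 passed, where 6 genes of all did (0.0502%). An unadjusted p under 0.05 in edgeR was reached there by 0 of the 10 and by 601 of all genes. In the LV Tgfb1 rose by 1.27 ± 0.24 on the log2 scale (adjusted p = 1.27e-05) and Ltbp4 by 1.39 ± 0.33 (adjusted p = 2.71e-04). Ltbp3 (0.58 ± 0.13), Tgfb3 (0.61 ± 0.23), Tgfbr2 (0.51 ± 0.15) and Tgfbr3 (0.16 ± 0.07) rose and Tgfbr1 fell (-0.44 ± 0.15), with adjusted p between 2.10e-04 and 0.0383. The LV Sham-H libraries were uneven, and Sham-H replicates 4 and 5 were nearest to the older animals, with 585 and 362 for Tgfb1 where the other 5 had at most 267, and 15421 and 8874 for Ltbp4 where the other 5 had at most 6497. The call for Tgfbr3 in this comparison was lost in 12 of 16 fits that left out 1 animal. That for Tgfb3 was lost without Sham-H replicate 7 (adjusted p = 0.0564), and that for Tgfbr1 without Sham-H replicate 2 (adjusted p = 0.0631) and in a fit of only the groups compared (adjusted p = 0.0543). Both ages were also separate sets of animals, and the sources used here name no batch.

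Markers of other cells were compared between the ventricles too. In Sham-H, where 21% of all genes passed, 5 of 7 endothelial and 3 of 7 mural markers were lower in the RV and 0 of 9 fibroblast and 0 of 8 macrophage markers passed. In Sham-F, where 74.3% of all genes passed, 7 of 9 tested fibroblast markers, 6 of 7 endothelial markers (the other 1 was higher), 5 of 7 mural markers and 4 of 8 macrophage markers were lower in the RV, and 5 of 8 ventricular cardiomyocyte markers were higher and 2 lower. Summed endothelial markers ran from 652 to 1035 CPM in RV Sham-F and from 1872 to 3341 CPM in LV Sham-F, without overlap. From Sham-H to Sham-F in the LV, where 57.4% of all genes passed, 5 of 9 fibroblast, 3 of 7 endothelial (1 fell), 5 of 7 mural and 5 of 8 macrophage markers rose, while 5 of 8 ventricular cardiomyocyte markers fell and 2 rose. The part of these cells in the ventricle and age differences of the 10 genes was not tested.

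Across libraries the 10 genes fell into 2 sets by how they moved with fibroblast, endothelial and mural markers, but not by macrophage or cardiomyocyte markers. Group means were subtracted from log2 CPM, so that the correlations describe differences between libraries of the same group over 82 libraries, which share their RV and LV animals. Tgfb3 moved with fibroblast markers (Pearson r = 0.85) and mural markers (0.83), Ltbp1 with endothelial markers (0.88), Ltbp4 with endothelial and mural markers (0.797 and 0.802), Tgfbr2 with both of these (0.763 and 0.773), Tgfb1 with mural markers (0.75) and Ltbp2 with macrophage markers (0.74) and fibroblast markers (0.69). Ltbp3 had 0.61 with fibroblast and 0.62 with mural markers. Each of these 7 genes had 0.45 to 0.88 with the fibroblast, endothelial and mural lists alike, and no list was tested against another, so that none of the genes is tied to 1 cell type. In contrast Tgfb2, Tgfbr1 and Tgfbr3 had 0.08, 0.11 and 0.13 with fibroblast markers, 0.15, 0.14 and -0.02 with endothelial markers and 0.44, 0.03 and 0.10 with macrophage markers. With macrophage markers the sets overlapped, as Ltbp3 and Ltbp4 of the other set had 0.42 and 0.22. With mesothelial and platelet markers the sets were apart by a small margin. Tgfb2 had 0.31 and 0.27 with these lists, and the lowest of the other set were Ltbp3 (0.40) and Ltbp4 (0.34). With atrial cardiomyocyte markers Tgfb2 had 0.21. With ventricular ones it had -0.40, where the 7 genes of the other set had -0.71 (Ltbp2) to -0.37 (Ltbp4). Among the genes themselves, Tgfb3 and Ltbp1 (0.78) and Tgfb1 and Tgfbr2 (0.75) were closest, while Tgfb2 had 0.10 with Tgfb1, 0.16 with Tgfb3 and 0.41 with Ltbp2. The genes most like each of the 10 were sought over all tested genes. They were Ankrd23 (0.84), a stretch-related ankyrin repeat gene of muscle, Ncam1 (0.82) and Sptlc2 (0.77) for Tgfb2, and Fstl1 (0.87), Mxra8 (0.87) and the proteoglycan gene Bgn (0.86) for Tgfb3. For Ltbp4 they were Tmem204 (0.93), the endothelial kinase gene Tie1 (0.92) and Gsn (0.92), and for Ltbp2 the matrix genes Thbs4 (0.84) and Col8a1 (0.81) and Adcy7 (0.80). Ltbp1 was most like Reck (0.89), Tgfb1 most like Tgfb1i1 (0.87), Tgfbr1 most like Erap1 (0.86), Tgfbr2 most like Ptrf (0.88) and Ltbp3 most like Arhgef40 (0.84). For Tgfbr3 no gene came closer than 0.57, which was that of Tgfbi.

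**Figure D5:**
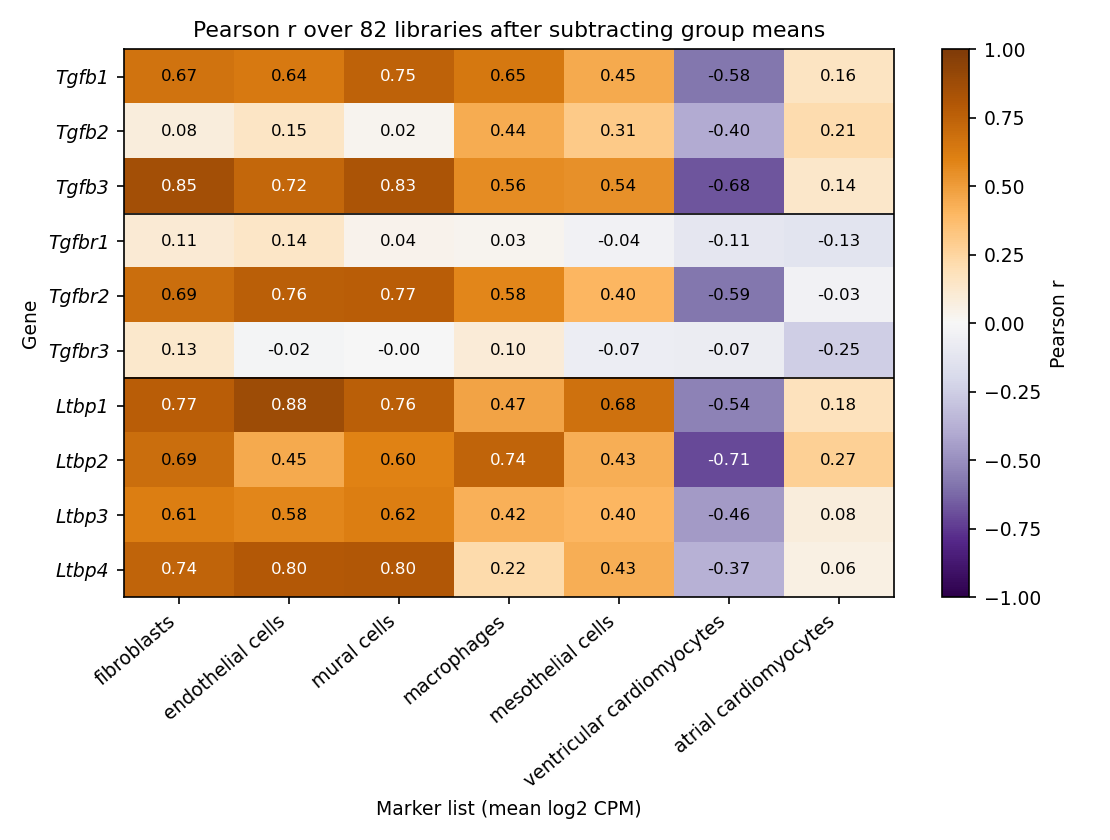
Pearson r between the log2 CPM of each gene (rows) and the mean log2 CPM of each marker list (columns) over 82 libraries, after the mean of each group was subtracted. The rows of Tgfb2, Tgfbr1 and Tgfbr3 are pale in the columns of fibroblasts, endothelial cells and mural cells, where the other 7 rows lie between 0.45 and 0.88.

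The wider pathway was read from 5 lists of genes around the ligands and receptors. Of 17 tested genes that TGF-beta is known to induce, 8 rose and 1 fell in RV PAB-H, 9 rose and 1 fell in RV PAB-F, 5 rose and 0 fell in LV AOB-F, and 0 passed in LV AOB-H. Of all genes 4.5%, 11.1%, 12.9% and 0.0167% passed in these comparisons in either direction. Ctgf, a matricellular protein gene, rose in all 3, by 1.04 ± 0.27 (adjusted p = 0.0197), 2.03 ± 0.26 (adjusted p = 1.74e-08) and 1.07 ± 0.25 (adjusted p = 0.00250) on the log2 scale. Fap, a protease of activated fibroblasts, and the oxidase gene Nox4 rose in the RV at both stages, with 1.76 ± 0.27 and 1.90 ± 0.32 in RV PAB-F. Postn, which encodes the matrix protein periostin, rose by 3.2 ± 0.58 in the failing RV and by 2.52 ± 0.55 in the failing LV, and Timp1, which encodes an inhibitor of matrix metalloproteinases, rose by 2.15 ± 0.44 in LV AOB-F. The gene that fell was Tgfbi, at -0.41 in RV PAB-H and -0.40 in RV PAB-F (adjusted p = 0.0350 and 0.0152), which was also the gene most like Tgfbr3. It was named after its values were seen. Without PAB-H replicate 2, 0 of the 17 passed in RV PAB-H, and without PAB-F replicate 1, 3 passed in RV PAB-F. The list shares Col1a1, Col1a2 and Col3a1 with the fibroblast markers and Acta2 and Tagln with the mural markers.

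Genes of latency and activation rose in part, 4 of 17 in RV PAB-H, 3 of 17 in RV PAB-F and 3 of 17 in LV AOB-F, with 0 lower, where 4.5%, 11.1% and 12.9% of all genes passed in either direction. In the direct test of the RV PAB-F against the LV AOB-F response 0 of the 17 passed. In the RV these were matrix genes at both stages, Fbn1, the fibrillin to which the binding proteins attach (1.26 ± 0.30 in RV PAB-F), Bgn, a proteoglycan that binds TGF-beta (1.4 ± 0.35), and Mmp2, a gelatinase (1.09 ± 0.32). Dcn, another proteoglycan, rose in RV PAB-H (1.44 ± 0.35). In LV AOB-F the genes that passed were the integrin chains Itgb1 (1.13 ± 0.24) and Itgb8 (0.73 ± 0.25), the latter part of an integrin that activates latent TGF-beta, and the microfibril gene Emilin1 (0.74 ± 0.23). The RV calls of this list were all lost without PAB-H replicate 2 or PAB-F replicate 1, and 1 of 17 was left in LV AOB-F without AOB-F replicate 6.

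Of 16 tested intracellular regulators, 0 passed in RV PAB-H and RV PAB-F (edgeR), and in LV AOB-F 4 rose and 1 fell, where 12.9% of all genes passed. The direct test of the RV PAB-F against the LV AOB-F response passed for 0 of the 16. The SMAD corepressor gene Tgif1 (0.96 ± 0.24), the feedback inhibitor gene Pmepa1 (0.74 ± 0.19), the ubiquitin ligase gene Smurf2 (0.47 ± 0.14) and the SMAD gene Smad2 (0.34) rose, and Tab1, an activator of a TGF-beta-dependent kinase, fell (-0.26 ± 0.09). Without AOB-F replicate 6, 1 of the 16 passed. Of 6 co-receptors and accessory receptors 1 passed in RV PAB-H, the type I receptor gene Acvrl1 (0.83 ± 0.23), which was lost with 1 animal left out (for example Sham-H replicate 6), and 0 in RV PAB-F and LV AOB-F.

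In LV AOB-H, LV PAB-H, LV PAB-F, RV AOB-H and RV AOB-F 0 genes of any of the 5 lists passed (edgeR). Related ligands and their binding proteins rose in 2 of 12 tested genes in RV PAB-H, in 6 of 12 in RV PAB-F and in 3 of 12 in LV AOB-F, where 2 fell, beside 4.5%, 11.1% and 12.9% of all genes in either direction. The activin inhibitor gene Fstl3 rose in all 3, from 117 ± 59.4 against 43.1 ± 6.49 normalized counts in RV PAB-F (log2 fold change 1.43 ± 0.22 (SE), adjusted p = 2.57e-06) and by 1.04 ± 0.24 and 0.83 ± 0.21 in RV PAB-H and LV AOB-F. Gdf15, a stress-induced cytokine gene, rose in RV PAB-F (1.83 ± 0.38), together with Fstl1 (1.12 ± 0.26) and the activin subunit genes Inhbb (1.03 ± 0.30) and Inhba (1.25). In LV AOB-F Bmp2 (1.08 ± 0.30) and Inhba (1.15 ± 0.36) rose. Nodal fell there at very low counts, with 1.18 ± 1.35 against 5.56 ± 3.26, and so did Inha (-1.10). Smad2, Inha and, in RV PAB-F, Inhba were named after their values were seen. Without PAB-F replicate 1, 2 of the 12 passed in RV PAB-F, and without AOB-F replicate 7, 0 of the 12 passed in LV AOB-F.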

How the data were processed

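RNA of ventricular cardiomyocytes was sequenced from both ventricles of 41 rats. Cells were isolated by collagenase perfusion of the heart, filtered and spun at low speed, and libraries were depleted of ribosomal RNA and read as pairs. The authors trimmed reads with Trim Galore, mapped them to Rnor6.0 (STAR) and obtained raw counts per gene (featureCounts), which they deposited as 1 table. Counts divided by DESeq2 size factors (version 1.28.1 per the labels) were deposited beside them as a normalized signal, together with FPKM. Raw counts were used for all tests, and the deposited FPKM were used only to compare levels between genes. Cells that survive isolation need not represent the whole ventricle.

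Total counts per library ranged from 6675287 to 19665439 with a median of 13074485.5. No pair of libraries of 1 group agreed within sampling noise (smallest chi-square per gene 4.21). Counts were fitted with the quasi-likelihood method of edgeR 4.0.16 (R 4.3.3), with 1 mean for each of 12 groups over 82 libraries, TMM factors and the default filter on low counts, which kept 11954 genes. Tests were two-sided, with Benjamini-Hochberg adjustment over all these genes. Normalized counts in the text refer to the mean effective library size of 13279120. Ventricles of 1 animal are tied by the labels, and the deviations of RV and LV from their group means had median correlations over genes of 0.186 to 0.297 within animals. In contrast, banded and sham-operated animals share only numbers. Each animal was left out in turn (both libraries, 41 fits). Other alternatives were RLE and upper quartile factors, no filter (15564 genes), DESeq2 1.42.0, sex as a covariate, a fit of only the groups compared, a replicate block and the criteria of the study.

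All 10 genes were named. Of the pathway lists, up to 4 passed genes with the smallest adjusted p per list and loaded ventricle were named (1 of them is not reported here), and for likeness the 3 genes with the highest r of log2 CPM (prior count 2) after subtraction of group means. Marker lists covered fibroblasts, endothelial, mural and mesothelial cells, macrophages, platelets, lymphocytes and ventricular and atrial cardiomyocytes. The genes, lists and comparisons were chosen with earlier results of these data known. Promoters were taken from RefSeq by symbol. The fits were tested on simulated counts.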

Additional observations from a re-analysis of the deposited data

Results flagged for a closer look

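A library was examined more closely where it was the highest or lowest of its group and the gap to its nearest neighbour, as a share of the whole range of the group, was above the 95% critical value of Dixon for that group size. Of 120 sets of values (10 genes in 12 groups) 23 met this, or 19.2%. For normally distributed values chance gives about 1 in 20 groups. The values here were normalized counts without a log transform, so that rate need not hold for them. All 23 came from 4 animals. The genes of 1 library share its RNA, so these are not separate events.

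AOB-H replicate 6 held the highest value 10 times. In its LV the shares were 0.767 for Tgfb1, 0.855 for Tgfb3, 0.862 for Tgfbr1, 0.744 for Tgfbr2, 0.867 for Ltbp1, 0.679 for Ltbp2 and 0.784 for Ltbp4. In its RV they were 0.797 for Ltbp1, 0.742 for Ltbp3 and 0.758 for Ltbp4. Its endothelial marker sum was the highest of its group in both ventricles, at 4046 CPM in the LV and 2372 CPM in the RV. Tgfb2 was not among these genes.

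In PAB-H replicate 2 the shares in the RV were 0.851 for Ltbp2, 0.745 for Ltbp3 and 0.644 for Tgfbr2. In its LV they were 0.781 for Tgfb1, 0.666 for Ltbp3 and 0.765 for Ltbp4, and 0.734 for Tgfbr1, which was the lowest there at 209 normalized counts. In RV PAB-F replicate 1 they were 0.872 for Ltbp2, 0.840 for Tgfb1 and 0.793 for Tgfb3. The control Sham-H replicate 4 stood apart for Ltbp2 in both ventricles (0.960 in the RV and 0.825 in the LV) and for Ltbp1 in the LV (0.583). The part of the marker cells in these values was not tested.

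The response of Tgfb2 to PAB at the failing stage differed between the ventricles, by 2.06 on the log2 scale in a test of the difference itself with edgeR (adjusted p = 0.0483). This call was lost in 13 of 15 fits that left out 1 animal and in 3 of 7 other settings. The RV was higher than the LV in 6 of 6 PAB-F animals and in 3 of 9 Sham-F animals.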

How the results depend on the processing

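Pairs of a gene and a comparison that passed under at least 1 setting gave 848 log2 fold changes recomputed under another setting. None of these turned its direction, 754 stayed on the same side of the threshold, 57 lost it and 37 gained it. Pairs that passed under no setting were not counted, and some of those turned direction. For example, Tgfbr2 in RV PAB-F went from 0.02 to -0.07 with the replicate number as a block. The number of genes passed of 10 changed as follows, and the cause was not tested. With 1 animal left out, 0.241% to 8.54% of all genes passed in RV PAB-H and 2.81% to 14.5% in RV PAB-F. In LV AOB-H at most 0.561% passed, and in LV AOB-F 6.05% to 20.4%. Shares under the criteria of the study are given with the results. For the other settings and comparisons the counts below stand without the share of all genes. They therefore do not show whether these 10 genes changed more than others did. In RV PAB-H it was 6 instead of 3 in a fit of only the groups compared, and 1 to 4 with 1 animal left out. In RV PAB-F it was 2 instead of 4 by the criteria of the study, which need a change over 1, 6 in a fit of only the groups compared, and 2 to 5 with 1 animal left out. In LV AOB-H it was 1 instead of 0 with DESeq2, and 0 to 1 with 1 animal left out (1 without Sham-H replicate 1 or 2). In LV AOB-F it was 2 instead of 1 by the criteria of the study, with sex as a covariate, in a fit of only the groups compared and with DESeq2, and 1 to 2 with 1 animal left out. In RV AOB-F it was 1 instead of 0 by the criteria of the study. Between the ventricles it was 5 instead of 3 in Sham-H with the animal as a replicate block and 0 to 4 with 1 animal left out, and 4 instead of 9 in Sham-F by the criteria of the study. In the LV with age it was 2 instead of 7 by these criteria. For the PAB-F response of the RV minus that of the LV it was 0 instead of 1 with RLE size factors, without a filter and in a fit of only the groups compared, 2 with the animal as a block and with DESeq2, and 0 to 2 with 1 animal left out. For the PAB-F response of the RV minus the AOB-F response of the LV it was 1 instead of 0 with RLE size factors, without a filter and with DESeq2, and 0 to 1 with 1 animal left out (1 without Sham-F replicate 3, AOB-F replicate 1 or 3, or PAB-F replicate 3 or 6).

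Banded and sham-operated animals share only a replicate number, and as a block that number took Tgfb3 in RV PAB-F to 0.71 (adjusted p = 0.0533) and Tgfbr3 in the LV with age to 0.15 (adjusted p = 0.0619). The block changed no other call than these and those given with the results. Ltbp2, at a median of 0.625 FPKM and as few as 10 reads, was measured least precisely. Groups held 6 to 9 animals.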
